A study of Bos taurus with 17 samples.

Results

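The comparison set bovine umbilical cord mesenchymal stem cells kept for 21 days on a media scaffold against the same kind of cells kept for 21 days on a plastic plate. Its members were the genes of the deposited table whose value averaged at least 5 over the 6 libraries of the comparison, which were 10896 of 12894 genes. Mesenchymal stem cells are stromal cells that can be steered towards muscle, fat, bone and cartilage, and the study grew them under a muscle-inducing protocol on scaffolds intended for cultivated meat. Both groups were Bos taurus primary cells with no stated genetic change, and plates received the medium 1 day after seeding. Both groups were given the same differentiation medium, DMEM/F-12 with 2% FBS (fetal bovine serum), ITS, BSA, dexamethasone, ascorbic acid 2 phosphate, vascular endothelial growth factor, insulin-like growth factor and fibroblast-like growth factor. The design text describes the media scaffold as carrying cells in the same medium as the plates, so the substrate was the labelled difference, with growth factors in solution on both sides. There were 4 media scaffold libraries and 2 plastic libraries, which the design text calls biological replicates without naming the animals or cultures. P-values measure the spread between libraries, pooled over the 15 libraries of the 5 groups fitted together.

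For orientation, values are also given for plastic at day 0 (1 day after seeding, 3 libraries), plastic at day 3 (3 libraries) and a smart scaffold at day 21 (3 libraries), whose scaffold itself carried the growth factors, while its medium had none. These groups used the same kind of cells as the main comparison and were fitted with it, but they were not compared here. Day 3 plastic and smart scaffold also share its medium base. Day 0 fell at the time when plates received the differentiation medium, so its values do not stand for culture in that medium. Values are normalized reads, meaning reads divided by a library-wide factor, and they are compared only within a gene, since no transcript lengths were used. RNA was counted at 3′ ends (MARS-seq), so a value is a level of polyadenylated RNA per library. In bulk RNA, fewer cells of a type and less RNA per cell cannot be told apart.

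A culture substrate sets stiffness, shape and contact area for adherent cells, and stromal cells read these through integrins and the actin cytoskeleton. Stromal cells also build their own surroundings, first a fibronectin and collagen network and then elastic fibres, proteoglycans and basement membrane. On stiff flat plastic, cultured stromal cells commonly take on a myofibroblast form, with contractile proteins and stress fibres. Growth factors in the medium act through their receptors on the same cells, and several of their target genes encode feedback inhibitors of the same pathway.

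The 2 plastic libraries held 5264578 and 2197356 reads and the 4 media scaffold libraries between 7397661 and 8975051. Plastic was thus the shallower and smaller group, and 1 read was worth 1.38 and 3.44 normalized reads there against 0.810 to 0.995 on media scaffold. Replicates correlated across genes at 0.962 for the plastic pair and at 0.985 to 0.990 among media scaffold libraries (Pearson's r of log2 values over genes, which are not independent replicates). The median standard deviation of a gene on the log2 scale was 0.227 on plastic and 0.146 on media scaffold. It was 0.115 on plastic at day 0, 0.277 on plastic at day 3 and 0.159 on smart scaffold, which also entered the pooled spread. These medians rest on 2 to 4 libraries per group. Fewer libraries lower such a median, so the groups are not directly comparable. Library weights estimated from the spread were 0.276 for both plastic libraries and 0.871 to 1.86 on media scaffold. The 2 plastic weights were bound to be equal, since the deviations of 2 libraries mirror each other. Standard errors and p-values from the pooled fit therefore do not measure the spread of the plastic libraries alone. Mesenchymal surface markers summed to 67713 and 74577 normalized reads on plastic and to 73084 to 77850 on media scaffold, and THY1 (CD90) was high in all 6 libraries. Blood and immune markers summed to 144 and 196 on plastic against 30.4 to 39.8 on media scaffold, and CD34 stood at 12.4 and 13.7 against 0 to 0.987. Endothelial markers summed to 85.6 and 134 on plastic and 116 to 139 on media scaffold, and pericyte markers to 5108 and 4862 against 4852 to 6123. MYOD1 and MYOG, the regulators that commit cells to skeletal muscle, were not analysed here.

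Of the 10896 genes, 2278 were higher on media scaffold (20.9%) and 1629 were lower (15%), at a Benjamini-Hochberg adjusted p under 0.05 in limma and a change of at least 2-fold, which is called a rise or a fall below. A log2 fold change is media scaffold minus plastic on the log2(value + 1) scale and is followed by its standard error (SE), and every adjusted p below comes from this one limma fit. At least 4-fold changes numbered 868 upward and 530 downward, and at least 8-fold changes 287 and 159. The median change over all genes was 0.01 on the log2 scale, which the scaling of libraries to a common level holds near 0. In 7850 genes (72.0%) the 4 media scaffold libraries all lay above or all below both plastic libraries, and 51 called genes did overlap. Among genes averaging 5 to 20 normalized reads, 20.4% rose and 23.8% fell, and among those at 1000 or more 15.7% rose and 7.95% fell. List members are named by the size of their change, and those that were picked after their values were seen are listed with the processing. Genes named by rule had to be called without overlap between the groups. Statements below that the libraries of such genes did not overlap describe their values and are no added support. The gene lists below held 1443 genes of the table, of which 1309 passed the filter, and their counts are over the genes that passed. The filter used the mean of both groups, so a gene near the limit passed mainly through the group in which it was higher. Requiring evidence for a change beyond 2-fold, rather than a point estimate beyond it, left 1237 rises and 682 falls.

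**Figure D1:**
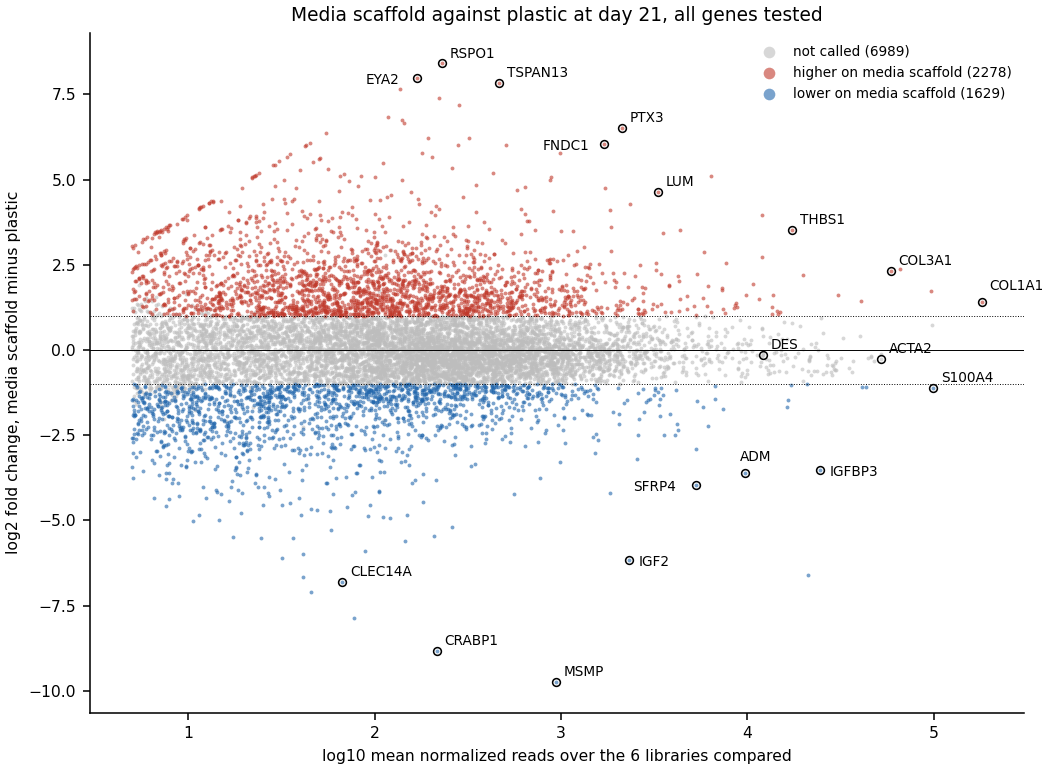
Each point is 1 of the 10896 genes, with its log10 mean normalized reads over the 6 libraries on the x axis and its log2 fold change (media scaffold minus plastic) on the y axis. Red points (2278) rose, blue points (1629) fell and grey points were not called, and dotted lines mark a 2-fold change. RSPO1 and EYA2 sit at the top with no reads on plastic, MSMP and CRABP1 at the bottom, and COL1A1 lies furthest to the right of the labelled genes.

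Among the steepest rises were genes with no read on plastic. RSPO1, a secreted amplifier of WNT signalling, had 0 reads in both plastic libraries and 293, 301, 338 and 442 normalized reads on media scaffold. EYA2, a cofactor of homeodomain transcription factors in muscle formation, likewise had 0 reads on plastic and 279, 234, 271 and 224 on media scaffold. CTSL, the lysosomal protease cathepsin L, had 0 reads on plastic and 183, 182, 199 and 254 on media scaffold. All 4 media scaffold libraries were far above plastic for these genes. Set against a floor of 3 reads in the plastic group, RSPO1 was at least 115-fold higher, EYA2 at least 86.0-fold and CTSL at least 68.8-fold. Smart scaffold means were 267 for RSPO1, 208 for EYA2 and 168 for CTSL, and all were below 2 on plastic at day 0 and day 3. In all, 63 called genes had no read on plastic, the group with fewer reads, and 6 had none on media scaffold.

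Abundant genes also rose steeply. PTX3, a pentraxin that binds matrix and pathogens, stood at 78.7 and 13.7 normalized reads on plastic and 3095, 3068, 3179 and 3301 on media scaffold. FNDC1, a fibronectin type III domain protein, stood at 31.7 and 44.7 on plastic and 2495, 2229, 2433 and 3019 on media scaffold (log2 fold change 6.03 ± 0.17 SE, adjusted p = 1.03e-13). PERP, a desmosomal membrane protein and p53 target, stood at 19.3 and 34.4 on plastic and 1443, 1514, 1449.8 and 1426 on media scaffold (log2 fold change 5.77 ± 0.19 SE, adjusted p = 6.85e-13), and is named after its values were seen. The groups did not overlap for any of them. PTX3 was uneven between plastic libraries, and its log2 fold change was 7.74 without plastic replicate 1 and 5.31 without replicate 2.

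Among the steepest falls was that of MSMP, a small secreted microseminoprotein, which stood at 3227 and 2374 normalized reads on plastic and 0.821, 4.97, 2.43 and 1.97 on media scaffold (log2 fold change -9.74 ± 0.47 SE, adjusted p = 5.47e-11). Its mean was 4.30 at day 0 and 37.9 at day 3 on plastic, and no smart scaffold library had a read. CRABP1, a retinoic acid binding protein, stood at 711 and 581 on plastic and 0, 0.995, 0 and 0.987 on media scaffold, where 2 reads were found in all. SST, the precursor of somatostatin, stood at 602 and 876 on plastic and 17.2, 19.9, 13 and 28.6 on media scaffold, and TAC3, the neurokinin B precursor, at 297 and 223 and 4.10, 2.98, 3.24 and 2.96. Plastic was high and media scaffold low in every library for these genes. CLEC14A, a C-type lectin known from endothelium, stood at 237 and 162 on plastic and at 0.821, 0, 1.62 and 0.987 on media scaffold, while the summed endothelial markers overlapped between the groups.

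**Figure D2:**
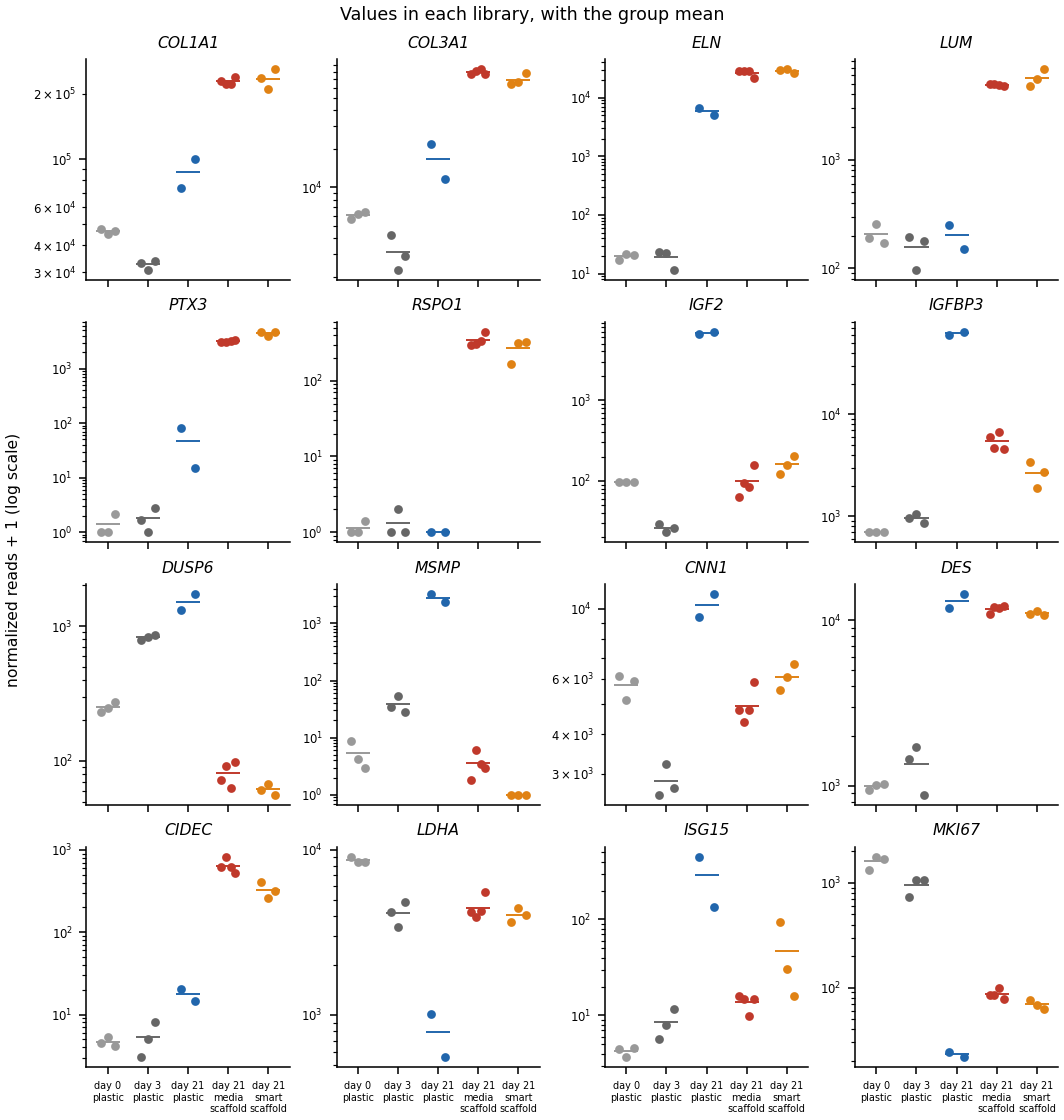
Normalized reads plus 1 in each library on log axes for 16 genes, with a horizontal bar at each group's mean and groups in the order day 0 plastic, day 3 plastic, day 21 plastic, day 21 media scaffold and day 21 smart scaffold. COL3A1, ELN, LUM, PTX3 and CIDEC are higher on media scaffold than on day 21 plastic in all 4 libraries, IGF2, IGFBP3, DUSP6 and MSMP are lower, and DES overlaps between the groups.

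Collagen RNA differed by type. Collagen chains assemble as trimers, and types I and III form the fibrils of loose and vascular connective tissue. COL1A1 stood at 73456 and 100136 normalized reads on plastic and 228123, 222246, 222330.0 and 240215 on media scaffold (log2 fold change 1.41 ± 0.11 SE, adjusted p = 1.35e-08). COL1A2, the partner chain of type I, stood at 20896 and 14515 and 90791, 91856, 90259 and 85931 (log2 fold change 2.36 ± 0.13 SE, adjusted p = 2.68e-10), and COL3A1 at 21961 and 11597 and 77163, 81107, 83414 and 76612 (log2 fold change 2.32 ± 0.21 SE, adjusted p = 7.92e-08). Every media scaffold library exceeded both plastic libraries for the 3 chains, and their smart scaffold means were 235487, 91642 and 69130.5. COL11A1, which nucleates fibrils in cartilage, rose from a mean of 463 to 5054, and COL5A2, which limits fibril diameter, from 188 to 739.7.

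Other chains went the other way. COL4A1, a type IV basement membrane chain, stood at 29669 and 28047 on plastic and 10759.5, 9952, 10934 and 9835 on media scaffold (log2 fold change -1.48 ± 0.09 SE, adjusted p = 7.94e-10). COL4A2, its partner in the same trimer, stood at 2382 and 2484 and 309, 207, 403 and 150.0. COL18A1, the basement membrane collagen from which endostatin is cut, stood at 8589.7 and 9563 and 1627, 1742, 1718 and 1403. Both plastic libraries were above every media scaffold library. COL6A3, of the pericellular type VI collagen, fell from 347 to 34.3, while COL6A1 was not called at 311 and 250.1. In all, 8 of 21 collagen chains rose and 7 fell, with a median log2 fold change of -0.33 against 0.01 over all genes. After quantile normalization the log2 fold change of COL1A1 was 0.65, under the 2-fold limit.

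Enzymes that modify collagen moved with the fibrillar chains in part. PLOD2, which hydroxylates the lysines used in stable cross-links, stood at 62.1 and 79 on plastic and 910.2, 956, 1023 and 1025 on media scaffold (log2 fold change 3.78 ± 0.29 SE, adjusted p = 1.2e-08). LOX, the lysyl oxidase that starts cross-linking, stood at 232 and 278 and 1119, 1123, 1204 and 1290.2, whereas its relative LOXL1, which acts on elastin, stood at 9645 and 8553 and 1957, 1906, 1985 and 1372. LOX was thus higher and LOXL1 lower in all 4 media scaffold libraries. SERPINH1, the collagen chaperone HSP47, rose by 1.35 and the prolyl hydroxylase subunit P4HA3 by 1.30 on the log2 scale. Of 27 processing genes 8 rose and 3 fell, and the other 16 were not called.

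Elastic fibres consist of an elastin core on fibrillin microfibrils. ELN (elastin) stood at 6635 and 5048 on plastic and 28807, 28118, 29077 and 21545 on media scaffold (log2 fold change 2.21 ± 0.22 SE, adjusted p = 1.6e-07), from means of 19 at day 0 and 18 at day 3. FBN1, the main fibrillin, stood at 4869 and 5848 and 2231, 2313, 2235 and 2399 (log2 fold change -1.22 ± 0.10 SE, adjusted p = 3.43e-08). The core was therefore higher and the main scaffold protein lower in every media scaffold library. LTBP2, a microfibril protein, fell from 3697 to 439.6, MFAP5 from 2723 to 733, and EMILIN1 from 149 to 24.3. EMILIN2 rose from 6.20 to 110.3, FBLN2 (fibulin 2) from 656 to 2646, and LTBP1, which holds latent TGF-beta in the matrix, from 217 to 714. The list was split, with 7 of 19 members higher and 8 lower.

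Basement membrane genes were more often lower, 7 of 16 against 4 higher (median log2 fold change -0.67). AGRN (agrin), HSPG2 (perlecan) and LAMB3 (a laminin chain) fell beside the type IV and XVIII chains, with log2 fold changes of -2.26, -1.17 and -2.89. NID1, the nidogen that links laminin to type IV collagen, rose from 658 to 2557, and SPARC, a collagen-binding glycoprotein, stood at 38709 and 37953 on plastic and 122354, 130298, 126088 and 126393 on media scaffold.

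Proteoglycans and matricellular proteins showed 17 of 30 members higher and 4 lower, with a median log2 fold change of 1.18. LUM (lumican), a small leucine-rich proteoglycan that spaces collagen fibrils, stood at 249.8 and 151 on plastic and 4965, 4958, 4848 and 4732 on media scaffold (log2 fold change 4.64 ± 0.24 SE, adjusted p = 1.14e-10). DCN (decorin), of the same family, stood at 2789 and 2673 and 8895, 9526, 10204 and 9678, while BGN (biglycan) stood at 66973 and 67976 and 32758, 32158, 31868 and 29392. Lumican and decorin were thus higher and biglycan lower in every media scaffold library. THBS1 (thrombospondin 1), which can activate latent TGF-beta, stood at 2991 and 1584 and 25192, 21884, 26926 and 25798 (log2 fold change 3.51 ± 0.24 SE, adjusted p = 2.47e-09). FN1 (fibronectin) rose from 18950.5 to 51275 and TNC (tenascin C) from 5974 to 17671. VCAN (versican) fell from 896 to 143 and TGFBI, an integrin-binding matrix protein, from 653 to 76.

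Cartilage genes formed the list with the largest median, 3.21 over 9 tested members, of which 7 rose and none fell. Of 24 genes listed, 10 were in the table. Some that rose, such as COMP and ACAN, had almost no plastic reads and passed the filter only through media scaffold. The median and the count therefore depend in part on the filter and on the added 1. COMP (cartilage oligomeric matrix protein) had 0 reads on plastic and 56.6, 62.7, 80.2 and 70.1 normalized reads on media scaffold, at least 22.9-fold higher against a floor of 3 reads. ACAN (aggrecan) stood at 1.38 and 3.44 on plastic and 30.4, 17.9, 30.8 and 42.4 on media scaffold with 2 reads in all on plastic. PRG4 (lubricin), the joint lubricant, stood at 236 and 186 and 1080.1, 1073, 1114 and 767 (log2 fold change 2.25 ± 0.34 SE, adjusted p = 2.38e-05). HAPLN1, which links aggrecan to hyaluronan, stood at 11 and 0 and 107, 114, 109 and 98.7, and its log2 fold change was 3.16 without plastic replicate 2. Without plastic replicate 1 no plastic read was left, and HAPLN1 was at least 10.4-fold higher against a floor of 3 reads. The 4 media scaffold libraries were above plastic for each of these genes. Their smart scaffold means were 109 for COMP, 46.2 for ACAN, 648 for PRG4 and 87.8 for HAPLN1. Osteogenic genes divided, with 5 of 10 higher, among them COL1A1, COL1A2 and SPARC, which also stand in the matrix lists, and 3 lower, DLX3, MSX1 and RUNX2.

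**Figure D3:**
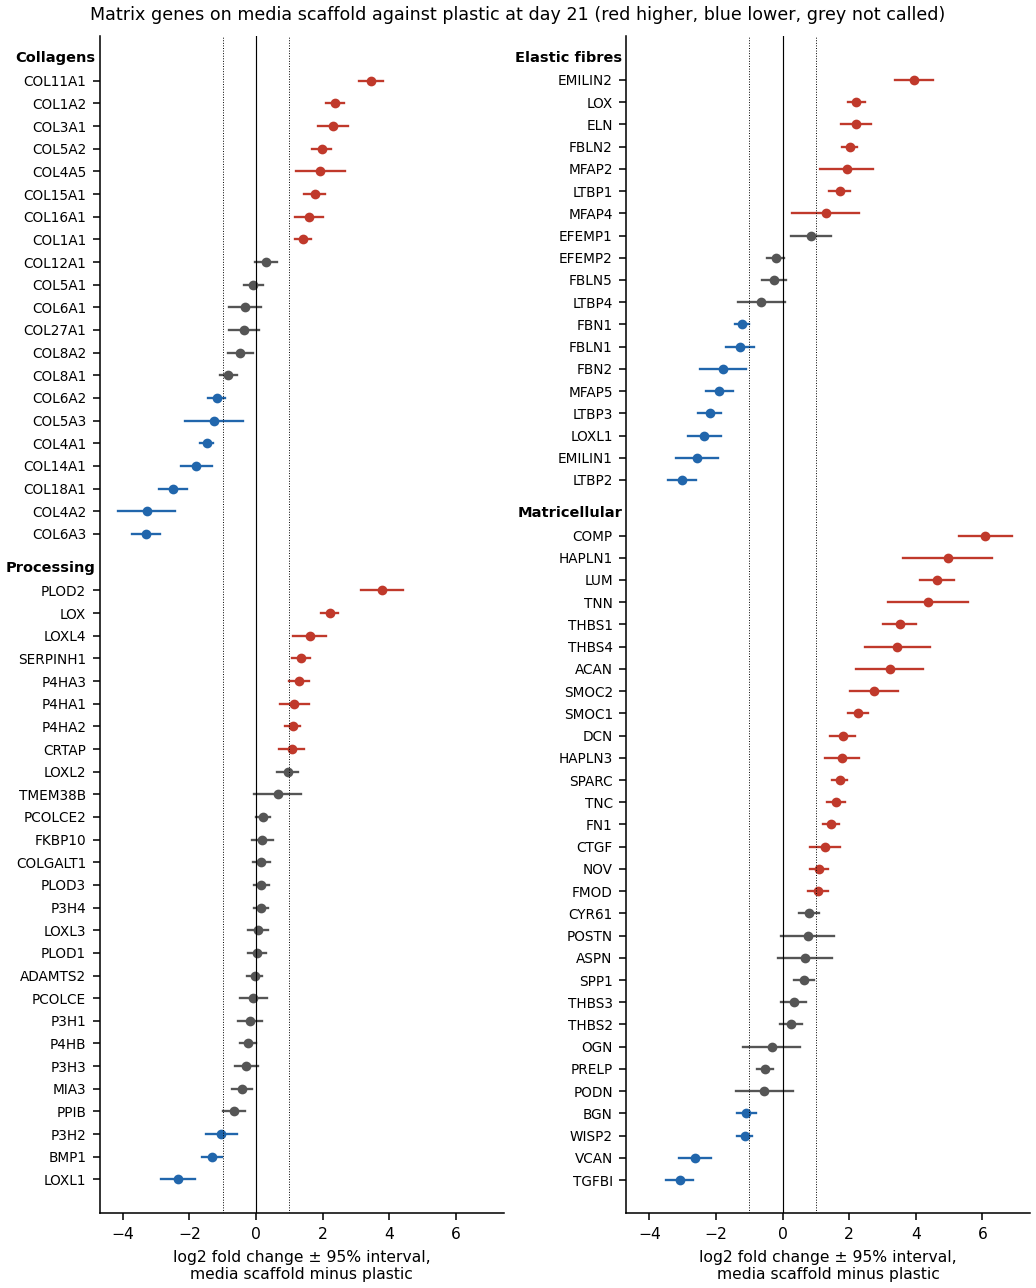
Log2 fold change (media scaffold minus plastic) with its 95% interval for every tested collagen, collagen processing, elastic fibre, and proteoglycan or matricellular gene, red where higher, blue where lower and grey where not called, with dotted lines at a 2-fold change. Fibrillar COL11A1, COL1A2 and COL3A1 lie at the right of the collagens and COL4A2 and COL6A3 at the left, ELN and EMILIN2 lie opposite LTBP2 and EMILIN1, and intervals of genes without plastic reads such as COMP depend on the added 1.

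Proteases and their inhibitors had 11 of 25 members rise and 2 fall. CTSK (cathepsin K), a collagen-degrading protease, stood at 2063 and 1165 on plastic and 7336, 7521, 7134 and 6851 on media scaffold (log2 fold change 2.22 ± 0.16 SE, adjusted p = 4.04e-09). MMP2, a gelatinase, rose from 8551 to 17572 and its inhibitor TIMP2 from 4428 to 10503, so that protease and inhibitor increased together. Without plastic replicate 2 the log2 fold change of MMP2 was 0.89, under the limit. SERPINE2, a secreted protease inhibitor, fell from 11819 to 4169. ADAMTS12, a secreted metalloprotease, stood at 22.1 and 17.2 on plastic and had 0 reads on media scaffold, at least 30.8-fold lower against a floor of 3 reads over the group.

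Smooth muscle and myofibroblast genes were more often lower on media scaffold, 7 of 21 against 1 higher, with a median log2 fold change of -0.73. CNN1 (calponin), which binds actin in smooth muscle, stood at 9411 and 11085 normalized reads on plastic and 4773, 4364, 4765 and 5839 on media scaffold (log2 fold change -1.06 ± 0.13 SE, adjusted p = 2.07e-06). CALD1 (caldesmon), another actin regulator, stood at 21329 and 39596 and 8718, 9955, 8788 and 9417, and TPM2 (beta tropomyosin) at 58928 and 67711 and 28369.6, 32107, 27739 and 31927. Both plastic libraries exceeded all media scaffold libraries for these genes. SMTN (smoothelin) and FHL2, a LIM protein, fell too, with log2 fold changes of -1.33 and -1.53. ACTA2 (alpha smooth muscle actin), the usual myofibroblast marker, was not called at 57802 and 59319.9 on plastic and 47158, 46340.0, 45332 and 56853 on media scaffold. MYH11, the smooth muscle myosin heavy chain, was not called at 2469 and 1324 (log2 fold change -0.91 ± 0.19 SE, adjusted p = 0.000617). Several members lay close to the 2-fold limit, and the count of lower members was 11 without plastic replicate 1, which adds MYH11 at -1.0. Without plastic replicate 2 it was 4, and CNN1 stood at -0.94 and TPM2 at -0.98. With edgeR CNN1 stood just under the limit.

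DES (desmin), the muscle intermediate filament, was not called, at 11838 and 14302 on plastic and 10857, 11972, 11895 and 12148 on media scaffold (log2 fold change -0.15 ± 0.18 SE, adjusted p = 0.458). The groups overlapped, and both stood above the means of 993 at day 0 and 1351 at day 3. Of 17 skeletal muscle structural genes 6 rose and 2 fell. CASQ2, the calcium-binding calsequestrin of cardiac and slow muscle, stood at 2.76 and 0 on plastic, from 2 reads, and at 198, 178, 192 and 272 on media scaffold, a ratio of 106 with a 95% counting interval of 29.3 to 876. Without plastic replicate 1 no plastic read was left, and CASQ2 was at least 20.2-fold higher against a floor of 3 reads. CRYAB, a small heat shock protein abundant in muscle, stood at 551 and 539 and 6201, 5913, 6200.0 and 6591 (log2 fold change 3.51 ± 0.14 SE, adjusted p = 7.42e-12), with means of 2408 at day 0 and 6502 at day 3. TNNT3 (fast skeletal troponin T) stood at 73.1 and 72.2 on plastic and 0.821, 0.995, 0.810 and 0 on media scaffold, from 3 reads. CASQ2 and CRYAB were thus higher and TNNT3 lower in every media scaffold library. ACTC1 (cardiac actin) stood at 5.52 and 34.4 and 87, 74.6, 143 and 167, with a log2 fold change of 1.67 without plastic replicate 1 and 4.11 without replicate 2.

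Among myogenic regulators 4 of 20 rose (20%, against 20.9% of all genes) and 6 fell (30%, against 15%). MYF6, a muscle regulatory factor of the MYOD family, stood at 2.76 and 3.44 on plastic, 3 reads in all, and 16.4, 14.9, 21.9 and 14.8 on media scaffold. MEF2A, a partner of these factors, rose from 69.2 to 179. Of the inhibitors of differentiation, ID3 stood at 1784 and 955 and 492, 479, 488 and 519 and ID4 at 45.5 and 65.3 and 13.1, 13.9, 17 and 3.95. FST (follistatin), which binds myostatin and activin, stood at 1108 and 1481 and 518, 505, 531 and 556, below day 0 and day 3 means of 5050.3 and 5772. Both plastic libraries were above media scaffold for ID3, ID4 and FST. Without plastic replicate 1 the log2 fold change of ID3 was -0.95, and with estimated library weights 3 members of the list fell. MYOCD, the smooth muscle coactivator, was below the filter. It stood at 1.38 and 6.87 normalized reads on plastic and 4.92, 1.99, 3.24 and 3.95 on media scaffold. These values came from 3 and 16 reads, in groups of unequal depth.

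Of 39 adhesion genes 9 were higher (23.1%) and 6 lower (15.4%), close to the 20.9% and 15% over all genes. ITGA7, the laminin receptor subunit of muscle, stood at 109 and 155 normalized reads on plastic and 866, 977, 923 and 1053 on media scaffold (log2 fold change 2.86 ± 0.13 SE, adjusted p = 4.46e-11). ITGB3, of the vitronectin receptor, rose from 127 to 599, and CAV1 (caveolin 1), the coat protein of membrane caveolae, stood at 3479 and 1832 and 16395, 16707, 17786 and 15706. Media scaffold was higher in every library for the 3 genes. TLN1 (talin), which links integrins to actin, fell from 9487 to 3338. ITGB1, the common beta subunit, was not called at 13760.2 and 10852. ACTG1 (cytoplasmic gamma actin) stood at 17272 and 9402 on plastic and 39227, 38426, 39111 and 40744 on media scaffold, with 56624 at day 0.

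Of 18 cadherin and junction genes 4 rose (22.2%) and 3 fell (16.7%), also close to the shares over all genes. CDH11, the mesenchymal cadherin, stood at 1309.7 and 735 and 4585, 4633, 4804 and 4600.0 (log2 fold change 2.24 ± 0.18 SE, adjusted p = 1.3e-08), CTNNB1 (beta-catenin) rose from 579 to 2292, and the gap junction gene GJA1 (connexin 43) from 50.0 to 440.3. CLDN1 (claudin 1) fell from 72.7 to 4.31. YAP carries mechanical signals to the nucleus. Of 20 YAP target genes 6 rose (30%, against 20.9% of all genes) and 3 fell (15%, as over all genes). ANKRD1 stood at 62.1 and 110.0 and 493, 507, 512 and 926, CTGF at 5883 and 3374 and 10999, 10104, 9877 and 12252, and CYR61 was not called at 1842 and 3178. AMOTL1, an angiomotin that binds YAP, fell from 109 to 9.99. Without plastic replicate 2 the log2 fold change of CTGF was 0.87, under the limit. KLF and immediate early factors, which respond within minutes to serum and stress, had 9 of 25 members rise and 1 fall, with KLF5 going from 10.7 to 251 and KLF4 from 79.6 to 549.8, while FOS was not called at 17.9 and 23.3.

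IGF genes encode ligands, receptors and binding proteins, and the binding proteins hold or release the ligand. IGF2 stood at 6518 and 7009.9 normalized reads on plastic and 61.6, 92.5, 83.4 and 155 on media scaffold (log2 fold change -6.17 ± 0.26 SE, adjusted p = 9.68e-12). IGF1 had 0 reads on plastic and 46.8, 45.8, 42.9 and 68.1 normalized reads on media scaffold, at least 17-fold higher against a floor of 3 reads. IGF2 was thus higher on plastic and IGF1 on media scaffold, without overlap. IGF2 means were 96.7 at day 0, 25.1 at day 3 and 160.4 on smart scaffold, and the IGF1 mean on smart scaffold was 34.8. IGFBP3, the main carrier in blood, stood at 60321 and 64533 on plastic and 5950.2, 4690.3, 6743 and 4583 on media scaffold (log2 fold change -3.52 ± 0.18 SE, adjusted p = 1.1e-10). IGFBP5 fell from 1112 to 319.8, and IGF2R, which clears IGF2, from 6063 to 1987, while IGFBP4 rose from 3139.9 to 7585. IGF1R, the signalling receptor, was not called at 45.4 and 53.8. Of 15 members of the axis 2 rose and 7 fell (median -0.78).

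FGF receptors signal through ERK, which induces its own brakes of the DUSP, SPRY and SPRED families and the ETV transcription factors. DUSP6, an ERK phosphatase, stood at 1309.7 and 1718 on plastic and 71.4, 90.5, 61.6 and 97.7 on media scaffold (log2 fold change -4.23 ± 0.17 SE, adjusted p = 4.75e-12). ETV1 stood at 678 and 533 and 73.9, 86.6, 103 and 86.9, ETV5 at 236 and 254 and 35.3, 30.8, 41.3 and 31.6, and SPRY1 (sprouty 1) at 909 and 505 and 149, 137, 159.6 and 146. All 4 were lower in every media scaffold library. FGFR1 fell from 393 to 71.6 and CCND1 (cyclin D1), an ERK-responsive cell cycle gene, from 2672 to 720.3. FGFR2 rose from 6.20 to 23.7, SPRED1 from 17.9 to 56.6, and KLB (beta-klotho), a coreceptor of endocrine FGFs, from 0 reads to 43.8. FGF2 itself was not called at 230.1 and 236. On smart scaffold, where growth factors were bound rather than dissolved, means were 60.5 for DUSP6, 82.6 for ETV1 and 33.6 for ETV5. In all 9 of 23 members fell and 5 rose.

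WNT signalling works through frizzled receptors and is tuned by secreted inhibitors and by R-spondins. Of 29 WNT genes 13 rose (44.8%, against 20.9% of all genes) and 5 fell (17.2%, against 15%). Their median log2 fold change was 0.94. Some that rose, such as RSPO1 and WNT9A, had no plastic reads and passed the filter only through media scaffold. The count and the median therefore depend in part on the filter and on the added 1. Beside RSPO1, the ligand WNT9A had 0 reads on plastic and 30.4, 36.8, 34 and 42.4 normalized reads on media scaffold. FZD1, a receptor, stood at 148 and 162 on plastic and 2742, 2616, 2687 and 2686 on media scaffold (log2 fold change 4.11 ± 0.10 SE, adjusted p = 1.52e-14). NKD1, an intracellular inhibitor that is itself a WNT target, stood at 2.76 and 0, from 2 reads, and 305, 313, 305 and 397, a ratio of 166 with a 95% counting interval of 46.0 to 1376. Without plastic replicate 1 no plastic read was left, and NKD1 was at least 31.8-fold higher against a floor of 3 reads. These genes were higher in every media scaffold library. Secreted inhibitors were divided. SFRP4 stood at 14226 and 13858 and 934, 976, 983 and 707 (log2 fold change -3.97 ± 0.17 SE, adjusted p = 9.79e-12) and DKK2 fell from 361 to 37.3, whereas SFRP1 rose from 136 to 581 and DKK3 from 1329.6 to 5017.

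Notch genes were more often lower, 6 of 14 against 1 higher. RBPJ, the DNA-binding partner of active Notch, stood at 1532 and 1917 on plastic and 234, 261, 274 and 280.3 on media scaffold (log2 fold change -2.71 ± 0.17 SE, adjusted p = 1.07e-09). LFNG, a glycosyltransferase that tunes the receptor, stood at 973 and 821 and 149, 117, 149.8 and 125. Both genes were lower in every media scaffold library. MAML2, a coactivator that RBPJ and Notch recruit, fell from 30.3 to 3.00. NOTCH3, one of the receptors, was not called at 1902 and 1749.6.

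**Figure D4:**
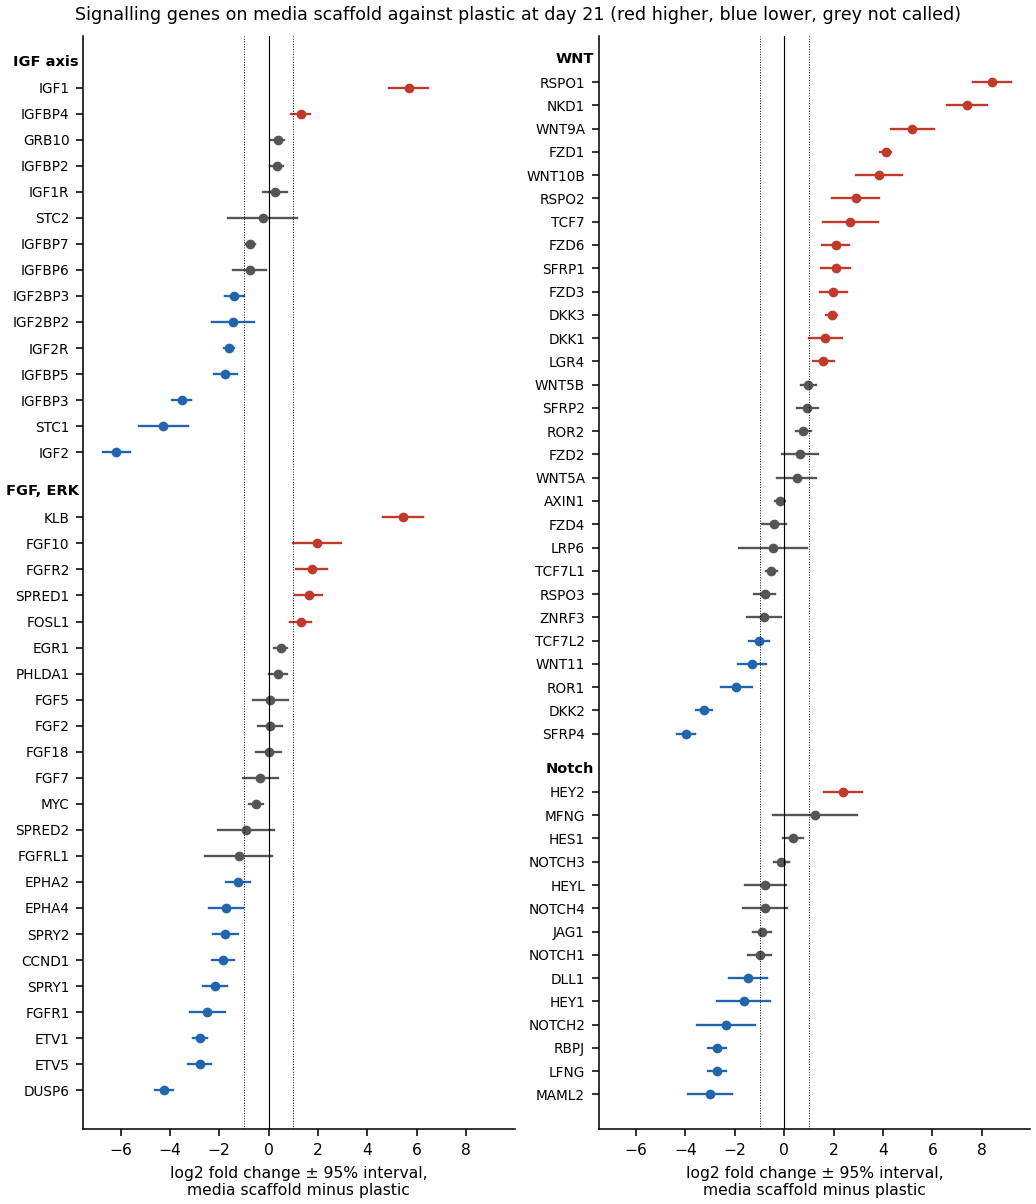
Log2 fold change (media scaffold minus plastic) with its 95% interval for every tested gene of the IGF, FGF and ERK, WNT and Notch lists, red where higher, blue where lower and grey where not called, with dotted lines at a 2-fold change. IGF1 and IGF2 lie at opposite ends of the IGF list, DUSP6, ETV1, ETV5 and SPRY1 lie left of 0, RSPO1, NKD1, WNT9A and FZD1 lie right of 0, and values of genes without plastic reads depend on the added 1.

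TGF-beta and BMP genes had 11 of 36 members rise (30.6%, against 20.9% of all genes) and 5 fall (13.9%, against 15%). TGFB2, a ligand, stood at 70.4 and 82.5 normalized reads on plastic and 437, 477, 403 and 545 on media scaffold (log2 fold change 2.59 ± 0.22 SE, adjusted p = 3.42e-08), while TGFB3 was not called at 112 and 108. CHRD (chordin), a BMP trap, rose from 5.17 to 86.3 and the receptor BMPR1A from 12.7 to 85.4. SMAD7 and ID1, direct targets of the pathways, were not called at 166 and 139 and at 300.0 and 297. VEGF genes were divided, 4 of 16 higher (25%) and 5 lower (31.2%, 3 genes without plastic replicate 2). ENG (endoglin), a TGF-beta coreceptor and mesenchymal marker (CD105), stood at 2935 and 3879.5 and 625, 602, 626 and 602 (log2 fold change -2.46 ± 0.15 SE, adjusted p = 6.77e-10). VEGFC fell from 597 to 268, PGF (placental growth factor) rose from 24.1 to 94.4, and VEGFA was not called at 38.9 and 47.8.

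Retinoid genes were divided as well, 4 of 16 higher and 4 lower (25% each, against 20.9% and 15% of all genes). CRABP2, which carries retinoic acid to the nucleus, stood at 63.5 and 37.8 on plastic and 537, 549, 559 and 728 on media scaffold (log2 fold change 3.56 ± 0.30 SE, adjusted p = 2.98e-08), opposite to CRABP1. RARRES1, a retinoid-induced gene, stood at 1090.3 and 1113 and 16718, 15771, 16214 and 20856 (log2 fold change 3.97 ± 0.12 SE, adjusted p = 1.68e-13), and RARB, a retinoic acid receptor and retinoid target, at 92.5 and 99.7 and 1.64, 11.9, 4.05 and 0.987. CRABP2 and RARRES1 were higher and RARB lower in every media scaffold library.

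MKI67, the proliferation marker Ki-67, stood at 23.5 and 20.6 normalized reads on plastic and 83.7, 84.6, 98 and 77 on media scaffold (log2 fold change 1.91 ± 0.17 SE, adjusted p = 4.66e-08), against means of 1605 at day 0 and 952 at day 3. UBE2C, an enzyme of mitotic exit, stood at 38.6 and 34.4 and 128, 124, 131 and 175, against 2445 at day 0. Media scaffold libraries were above day 21 plastic for both genes. TOP2A and CDK1 were not called at 9.98 and 12.3 and at 18.3 and 31.2. Of 40 cell division genes 11 rose (27.5%, against 20.9% of all genes) and none fell (median 0.47). Of 35 DNA replication genes 11 rose (31.4%) and none fell (median 0.33), while 15% of all genes fell. RRM1, a ribonucleotide reductase subunit, rose from 22 to 149.8, and the helicase subunit MCM6 from 26.5 to 95.8. Without plastic replicate 2, 6 replication genes rose, and with a minimum mean of 20, 7 cell division genes did.

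The list of cell cycle inhibitors and p53 targets also held D and E cyclins and E2F1. Of its 25 members 10 rose and 2 fell. CDKN1A (p21), a cyclin kinase inhibitor, stood at 2891 and 2756 on plastic and 9779.6, 9410.5, 9439.7 and 9673 on media scaffold (log2 fold change 1.76 ± 0.10 SE, adjusted p = 2.02e-10), with 1586 at day 0. CCNG1, a p53 target, stood at 495 and 296 and 2139, 2144, 2146 and 2344, and SESN1 (sestrin 1) at 16.6 and 10.3 and 138, 156, 168 and 104. The groups did not overlap for these genes, so that p21 and Ki-67 were both higher on media scaffold. The 2 members that fell were the D cyclins CCND1 and CCND2, the latter from 10823 to 3260.2.

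Lipid droplet and adipocyte genes had 8 of 17 members rise and 1 fall. CIDEC, which enlarges lipid droplets, stood at 19.3 and 13.7 normalized reads on plastic and 614, 818, 622 and 515 on media scaffold (log2 fold change 5.20 ± 0.31 SE, adjusted p = 5.85e-10). LIPE (hormone-sensitive lipase) stood at 71.8 and 58.4 and 1018, 1211, 1061 and 530.1, LPL (lipoprotein lipase) at 24.8 and 13.7 and 318, 313, 339 and 253, and the droplet coat gene PLIN2 at 571 and 364 and 1478, 1546, 1511 and 1574. Every media scaffold library was above plastic, with media scaffold replicate 4 lowest for CIDEC, LIPE and LPL. PLIN1, the fat cell droplet coat, stood at 37.3 and 6.87 and 325, 474, 313 and 181, with a log2 fold change of 5.28 without plastic replicate 1 and 3.00 without replicate 2. PPARG, the master regulator of fat cells, was not called at 672 and 705, and APOE fell from 3352 to 540.4. Smart scaffold means were 325 for CIDEC, 478 for LIPE and 131 for LPL.

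Fatty acid enzymes had 7 of 12 members rise and 1 fall. SCD, which makes monounsaturated fatty acids, rose from 247 to 1016 and the acyl-CoA synthetase ACSL3 from 94.4 to 487, while the desaturase FADS2 fell from 769.9 to 197. FASN (fatty acid synthase) was not called at 1441 and 788 (log2 fold change -0.87 ± 0.10 SE, adjusted p = 9.43e-07). Of 23 sterol synthesis genes 4 were higher (17.4%) and 3 lower (13.0%), near the shares over all genes. MSMO1, a late sterol enzyme, rose from 132 to 406, MVK, of the mevalonate pathway, fell from 499 to 195, and HMGCS1 was not called at 832 and 909.5. The count of lower sterol members was 5 when either plastic library was left out.

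Hypoxia genes had 14 of 31 members rise and 3 fall, with a median log2 fold change of 0.99. NDRG1, a stress gene induced by low oxygen, stood at 366 and 329.9 normalized reads on plastic and 2546, 2526, 2474 and 2939.7 on media scaffold (log2 fold change 2.91 ± 0.12 SE, adjusted p = 6.34e-12). LDHA (lactate dehydrogenase A) stood at 1013 and 553 and 4178, 3927, 4248 and 5529.9 (log2 fold change 2.56 ± 0.19 SE, adjusted p = 7.63e-09), below the means of 8633 at day 0 and near that of 4139 at day 3. NDUFA4L2, a mitochondrial subunit induced by HIF-1 and also a pericyte marker, stood at 12.4 and 6.87 and 498, 459.7, 562 and 1510.3. Media scaffold was higher in every library, and media scaffold replicate 4 was the highest for all 3 genes. HIF1A, the oxygen-regulated transcription factor subunit, rose from 72.7 to 689, and EPAS1 (HIF-2 alpha) fell from 2437 to 717. ADM (adrenomedullin), a peptide induced by low oxygen, stood at 23547 and 26628 and 1830.2, 2161, 1875 and 2425 (log2 fold change -3.60 ± 0.12 SE, adjusted p = 6.85e-13), the opposite direction, and STC1 (stanniocalcin) fell from 75.5 to 2.95. SLC2A1 and VEGFA, also classical targets, were not called at 90.5 and 124 and at 38.9 and 47.8.

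Rises among glycolysis and respiration genes were no more frequent than over all genes. Of 20 glycolysis genes 3 rose, LDHA and the lactate carriers SLC16A1 and SLC16A3, and none fell. The log2 fold change of SLC16A1 was 3.25 without plastic replicate 1 and 1.90 without replicate 2, and that of SLC16A3 3.08 and 5.33. PGK1, a glycolytic kinase, was not called at 1627 and 3143, with a log2 fold change of 0.97 close to the limit. Of 78 oxidative phosphorylation genes 12 rose, a share of 15.4% against 20.9% of all genes, and none fell. ATP5F1A, an ATP synthase subunit, stood at 1522 and 711 and 3569, 3829, 3722 and 3579 (log2 fold change 1.82 ± 0.20 SE, adjusted p = 4.69e-07), and CYCS (cytochrome c) at 9.66 and 6.87 and 95.2, 108, 79.4 and 80.0. Of 160 solute carriers 48 rose (30%, against 20.9% of all genes) and 24 fell (15%, as over all genes). SLC6A6 (taurine) rose from 33.7 to 215 and SLC40A1 (ferroportin) from 25.8 to 200.1, both named after their values were seen.

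Amino acid response genes, which ATF4 induces when amino acids are short, had 12 of 29 members rise and none fall. TRIB3, a pseudokinase target of ATF4, stood at 20.7 and 13.7 normalized reads on plastic and 112, 110.4, 101 and 116 on media scaffold (log2 fold change 2.63 ± 0.20 SE, adjusted p = 8.68e-09). CHAC1, which degrades glutathione, rose from 14.5 to 94.1, and PSAT1, of serine synthesis, from 154 to 621. ATF4 and ASNS were not called at 4418 and 5366 and at 629 and 865. Endoplasmic reticulum stress genes had 7 of 26 members rise (26.9%, against 20.9% of all genes) and 1 fall (3.85%, against 15%). DNAJB9 went from 40.6 to 249, while HSPA5 (BiP) was not called at 1549 and 2217. Among 70 ribosomal protein genes 3 rose and 1 fell, under the shares over all genes. Of 20 tRNA synthetase genes 4 rose and 2 fell (2 and 1 without plastic replicate 2), which is 20% and 10% against 20.9% and 15% of all genes.

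Heat shock genes had 10 of 30 members rise and none fall. HSPB7, a small heat shock protein of heart and muscle, stood at 6.90 and 10.3 on plastic and 364, 346, 358 and 477 on media scaffold (log2 fold change 5.34 ± 0.17 SE, adjusted p = 3.35e-13), with 906 at day 0. HSPH1 rose from 36.9 to 317 and the chaperonin subunit CCT4 from 253 to 1044, and HSPA8 was not called at 7354 and 7613. Antioxidant genes had 13 of 37 members rise and 2 fall. GCLM, of glutathione synthesis, rose from 113 to 374, and NQO1, a target of NRF2, stood at 110.4 and 34.4 and 456, 479.6, 499 and 469.9, with a log2 fold change of 3.75 without plastic replicate 1 and 2.10 without replicate 2. GPX3, a secreted glutathione peroxidase, fell from 3585 to 579.7.

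Dexamethasone in the medium activates the glucocorticoid receptor. Of 22 of its targets 7 rose (31.8%, against 20.9% of all genes) and 3 fell (13.6%, against 15%). FKBP5, a chaperone that dampens the receptor, stood at 1216 and 605 and 4505, 4479, 3959.8 and 4558 (log2 fold change 2.35 ± 0.19 SE, adjusted p = 2.29e-08). TSC22D3 (GILZ) stood at 106 and 120.3 and 444, 495, 449.5 and 603, and the receptor gene NR3C1 at 53.8 and 30.9 and 192, 221, 176 and 185. Of 6 metallothionein and zinc genes 3 fell and 1 rose. The metallothioneins MT2A and MT1E, which bind zinc and are also induced by glucocorticoids, fell from 606 to 104 and from 226 to 29.4. FKBP5, TSC22D3 and NR3C1 were thus higher and the metallothioneins lower in every media scaffold library, in a medium that was the same on both sides. Lysosome genes had 10 of 50 members rise (20% against 20.9% of all genes) and 2 fall (4% against 15%), with LAMP2 going from 188 to 1165. Of 36 proteasome genes 7 rose (19.4% against 20.9%) and 1 fell (2.78% against 15%), the immunoproteasome subunit PSMB8.

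Complement genes, part of innate defence, were lower in 7 of 13 cases and higher in 1. MASP1, a protease of the lectin pathway, stood at 1369 and 1622 normalized reads on plastic and 218, 214, 190.3 and 214 on media scaffold (log2 fold change -2.83 ± 0.17 SE, adjusted p = 6.61e-10). CFB (factor B) stood at 195 and 137 and 25.4, 26.9, 39.7 and 24.7, and C4A at 96.6 and 85.9 and 7.39, 5.97, 5.67 and 7.90. Both plastic libraries were above media scaffold for the 3 genes. C3, the central component, was not called at 445 and 335, and CD46, which protects host cells, rose from 306 to 869. The count of lower complement genes was 4 without plastic replicate 1.

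Interferon response genes were lower in 12 of 25 cases and higher in 3 (5 higher without plastic replicate 1 and 1 without plastic replicate 2). IFI27 stood at 642 and 553 on plastic and 15.6, 11.9, 15.4 and 8.88 on media scaffold (log2 fold change -5.45 ± 0.49 SE, adjusted p = 5.74e-08), and IRF1, a transcription factor of the response, at 328 and 296 and 34.5, 48.8, 41.3 and 33.6 (log2 fold change -2.96 ± 0.24 SE, adjusted p = 2.11e-08). ISG15, a ubiquitin-like protein, stood at 447 and 134 and 14.8, 13.9, 8.91 and 13.8, and MX1, an antiviral GTPase, at 283 and 117 and 25.4, 34.8, 34 and 36.5. All 4 genes were lower in every media scaffold library, and plastic replicate 1 was above replicate 2 for each of them. Without plastic replicate 1 the log2 fold change was -3.31 for ISG15 and -1.82 for MX1, and without replicate 2 it was -5.04 and -3.09. IFIT5 rose from 30.3 to 299.

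Inflammatory cytokine genes were divided, 7 of 28 higher and 8 lower. CXCL12, a chemokine by which stromal cells retain blood progenitors, stood at 14477 and 11336 and 2776, 2995, 2827 and 2389.8 (log2 fold change -2.23 ± 0.12 SE, adjusted p = 2.1e-10). CHI3L1, a chitinase-like secreted protein, stood at 2203 and 1801 and 160.0, 191, 137 and 115, and CXCL14, another chemokine, at 8.28 and 3.44 and 149, 207, 275 and 199. CXCL12 and CHI3L1 were lower and CXCL14 higher in every media scaffold library, and the smart scaffold mean of CXCL14 was 10.5. Blood and immune markers were more often lower, like the complement and interferon lists, while the cytokine list was divided. Of 5 tested markers 4 fell, the monocyte gene CD14 from 60.9 to 4.10, LAPTM5 from 24.4 to 0.951, CD68 from 16.2 to 3.66 and CSF1R from 41.3 to 17.6. Without plastic replicate 2 the log2 fold change of CSF1R was -0.62, under the limit, and its limma adjusted p was 0.106 with library weights and 0.0541 with a replicate block. Their part in the complement, interferon and cytokine results was not tested. PTPRC (CD45), their defining marker, was not analysed here.

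HOX genes record the position of a cell along the body axis, and 11 of 28 were lower on media scaffold and 2 higher (median -0.83). HOXC6 stood at 1025 and 1186 normalized reads on plastic and 293, 419.9, 409.8 and 434 on media scaffold (log2 fold change -1.52 ± 0.15 SE, adjusted p = 2.32e-07), and HOXA5 at 123 and 175 and 59.9, 26.9, 56.7 and 43.4. HOXD4 fell from 47.6 to 1.76, while HOXA10 and HOXC13 rose from 37.5 to 79.8 and from 26.9 to 72.8. Without plastic replicate 2 the log2 fold change of HOXC13 was 0.82 and that of HOXD4 -4.66, and that of HOXA10 was 0.96 without media scaffold replicate 4, 0.83 after quantile normalization and 0.97 with a replicate block. Of 62 other developmental transcription factors 19 fell and 10 rose. MSX1, a homeobox factor of undifferentiated mesenchyme, stood at 494 and 454 and 94.4, 93.5, 87.5 and 96.7, NR2F2 (COUP-TFII) fell from 3986 to 1090.5 and TBX2 from 887 to 231, and TCF21, a mesenchymal factor of inner organs, rose from 7.22 to 84.3. PRRX1 and TWIST1, which mark mesenchymal cells, were not called at 4192 and 3701 and at 513 and 709.6.

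Among mesenchymal surface markers, THY1 was not called at 16478 and 19765 on plastic and 14529, 16749, 15430.0 and 15191 on media scaffold, and NT5E (CD73) was not called at 188 and 317. ENG fell, as given above, and CD44, the hyaluronan receptor, rose from 335 to 739.7. CD9, a tetraspanin, rose from 3753 to 14242. Of 14 such markers 3 rose and 3 fell (21.4% each, against 20.9% and 15% of all genes). The summed level overlapped between the groups although its members did not move together. Of 7 pericyte markers 2 rose and none fell, of 5 endothelial markers 2 rose and 2 fell (1 and 0 without plastic replicate 2), and of 2 neural markers 1 rose, while the only tested epithelial marker was not called.

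**Figure D5:**
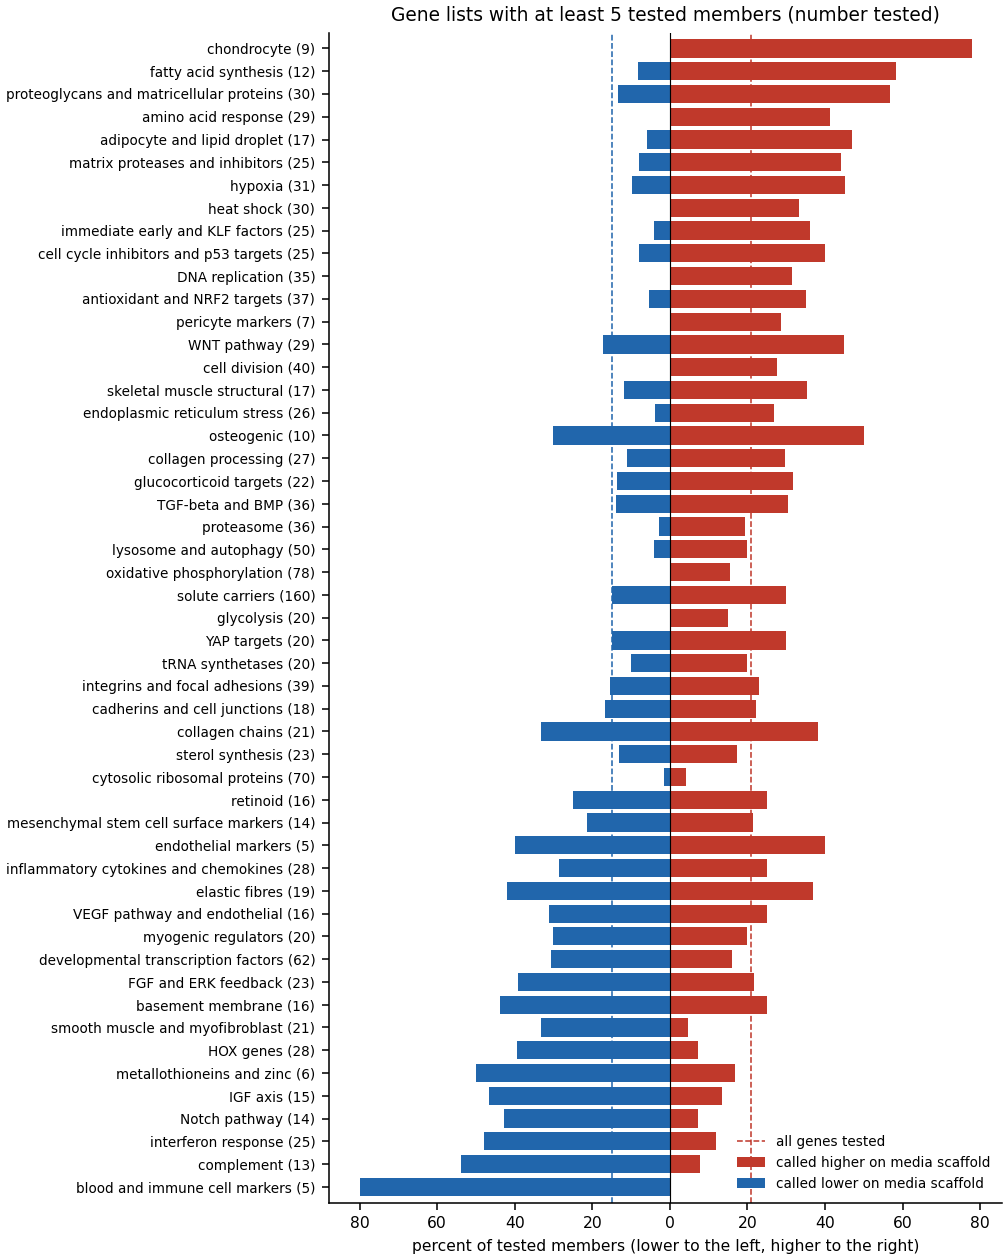
For each gene list, the percentage of tested members that were lower (bars to the left) and higher (bars to the right) on media scaffold, beside the same over all 10896 genes tested. Dashed lines mark the shares over all genes. Cartilage (chondrocyte), fatty acid synthesis and proteoglycan lists reach furthest to the right, and blood and immune, complement, metallothionein and interferon lists furthest to the left.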

How the data were processed

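The labels name 17 libraries of bovine cord stem cells, of which the 15 in 5 groups with a column in the deposited table were used. Per the labels' protocols, a PureLink kit was used to isolate RNA, and sequencing followed the MARS-seq method. Per the submitters' processing notes, cutadapt, STAR, HTSeq and DESeq were used with build ARS-UCD1.2, without versions. Settings for molecular identifiers and strand are not given in the sources used here. The deposited values are a signal per gene, which the authors made from read counts by dividing by a DESeq size factor, per the table's name. Dividing by the value of 1 read gave whole reads for 100% of values within 0.1, and 2 columns matched no labelled sample and were left out.

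Genes averaging 5 or more in the 6 libraries compared were tested on log2(value + 1) with limma 3.58.1 (R 4.3.3, mean-variance trend, robust), in one fit of 15 libraries with a mean per group. A two-sided Benjamini-Hochberg adjusted p under 0.05 together with a change of 1 or more on the log2 scale made a call. Intervals are 95%, and folds against 0 reads used a floor of 3 reads over the group, which covers counting error only. edgeR 4.0.16 and DESeq2 1.42.0 were run on the recovered reads as alternatives, beside other pseudocounts, filters, scalings and left-out libraries, and the script was tested on simulated data.

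The genes and the 54 gene lists were chosen with earlier results of these data known. Named genes were, among called genes without overlap, the 15 largest rises and falls, the 10 largest differences of mean each way, up to 5 called members of each list by size of change, and DES, ACTA2, COL1A1, MKI67, THY1 and IGFBP3. Members not called may be given as values. Outside this rule, after their values were seen, were named APOE, CCND1, CCND2, CD44, CDKN1A, CNN1, COL5A2, CTGF, CXCL12, DCN, DKK2, DKK3, EPAS1, FBLN2, FBN1, FGFR2, FST, GCLM, HIF1A, HOXA10, HOXC13, HOXC6, HSPG2, IGF2R, IGFBP4, ITGB3, LTBP1, MEF2A, MFAP5, MMP2, NDRG1, NR2F2, P4HA3, PERP, PLIN2, PRG4, RUNX2, S100A1, SERPINE2, SFRP1, SLC40A1, SLC6A6, SPRED1, SPRY1, TBX2, TIMP2, TLN1, TNC, TSC22D3, VCAN and VEGFC. Gene symbols are those of the table, and 22 list members were matched through older symbols in RefSeq's gene table. No sequence was used.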

Additional observations from a re-analysis of the deposited data

Results flagged for a closer look

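For 26 of the 228 genes named, 1 media scaffold library lay far from the other 3, with a gap to the nearest of them above Dixon's 95% critical share of the range of all 4. Chance gives about 1 such gene in 20. Replicate 4 was the distant library for 19 genes, replicate 3 for 6 and replicate 1 for 1. Values below are normalized reads of that library against the range of the other 3.

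Replicate 4 was the high library for 3 genes known to respond to low oxygen: NDUFA4L2 1510.3 against 459.7 to 562, NDRG1 2939.7 against 2474 to 2546 and SLC2A1 165 against 109 to 112. It was also high for the muscle ankyrin repeat gene and 2 other muscle-associated genes: ANKRD1 926 against 493 to 512, ACTA2 56853 against 45332 to 47158 and HSPB7 477 against 346 to 364. For chaperones the values were HSPA5 2536 against 2088 to 2146 and HSPA8 8079 against 7425 to 7487. The remaining high genes were CCNG1 2344 against 2139 to 2146, CRABP2 728 against 537 to 559 and IGF1 68.1 against 42.9 to 46.8, and NKD1 397 against 305 to 313, SLC6A6 269 against 189.6 to 201 and UBE2C 175 against 124 to 131.

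Replicate 4 was the low library for elastin, for an enzyme that crosslinks it and for lubricin: ELN 21545 against 28118 to 29077, LOXL1 1372 against 1906 to 1985 and PRG4 767 against 1073 to 1114. It was low as well for KLB 25.7 against 47.6 to 51.7 and PSAT1 571 against 636 to 639.8.

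Replicate 3 was high for CFB 39.7 against 24.7 to 26.9 and low for COL6A1 190.3 against 265 to 275, FKBP5 3959.8 against 4479 to 4558, ISG15 8.91 against 13.8 to 14.8, MASP1 190.3 against 214 to 218 and NOTCH3 1685 against 1768 to 1778. Replicate 1 was low for CLDN1 2.46 against 4.86 to 4.97. Among the called genes named, only HOXA10 lost its call without replicate 4, and its fold change there is given with the HOX genes. For the genes above, fold changes without replicate 4 are not given. What set the libraries apart was not tested.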

How the results depend on the processing

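The numbers of genes that rose (2278) and fell (1629) stayed within 1.5 times under every alternative but one. Testing against a 2-fold change with limma's treat left 1237 and 682. Leaving out 1 library at a time gave 1929 to 2520 rises and 1360 to 1777 falls, both ends set by the plastic libraries, and edgeR gave 2203 and 1499 and DESeq2 2018 and 1569. Replicate numbers were not used to pair the samples. Deviations of same-numbered libraries correlated at -0.0062 and -0.0014. With 2 plastic libraries the deviations of one mirror those of the other, so these values cannot show whether the numbers pair samples. A replicate block gave 2231 and 1578.

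Of the 198 called genes named in the text, 188 kept the call under each alternative other than treat in which they were tested, while 7 were below a minimum mean of 20 and 1 below a minimum of 5 over all libraries. No called gene changed direction. Among genes not called, the log2 fold change crossed 0 for 6. Leaving out 1 library at a time, it ran from -0.11 to 0.19 for FGF2, from -0.13 to 0.28 for PPARG, from -0.042 to 0.56 for IGF1R, from -0.16 to 0.053 for TGFB3 and from -0.22 to 0.19 for ID1. For HSPA8 it was -0.024 after quantile normalization. For TGFB3 it was 0.019 with edgeR and 0.0035 with edgeR on the 6 libraries. For ID1 it was 0.0023 with equal totals, 0.029 with library weights, 0.021 with the replicate block and 0.0050 with edgeR. The causes of these changes were not tested. Leaving out plastic replicate 1 turned counts of 1 into 2 for Notch, metallothionein and zinc rises and proteasome falls, and leaving out plastic replicate 2 did so for fatty acid falls.

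The plastic group has 2 libraries, and the smaller one, at 2197356 reads, counts 1 read as 3.44 normalized reads, so small plastic values are coarse. The filter removed 1998 genes. Normalization to the library makes all values relative. Reads from genes with near-identical copies, such as the metallothioneins and ribosomal proteins, or from overlapping genes, could not be separated here.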

Other observations

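Among genes without a symbol that fell, ENSBTAG00000054745 had the most normalized reads. It was chosen after its values were seen, and stood at 56363 and 67216 normalized reads on plastic and 444, 482, 830.2 and 927 on media scaffold (log2 fold change -6.59 ± 0.24 SE, adjusted p = 1.14e-12). Its means were 1319 at day 0, 81 at day 3 and 721 on smart scaffold, so the day 21 plastic libraries had the highest mean of the 5 groups. Of 801 tested genes without a symbol 137 rose and 203 fell.

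Some gene families stood out once the values were seen, and they are given as counts without a test. S100 genes encode small calcium-binding proteins, and 7 of 11 fell and 1 rose, with a median log2 fold change of -1.16. S100A4, a marker of fibroblasts, stood at 134941 and 175654 normalized reads on plastic and 66330.0, 77304, 72221 and 70824 on media scaffold, and its log2 fold change was -0.92 without plastic replicate 2. S100A1, of heart and muscle, stood at 139 and 117 and 4.10, 3.98, 5.67 and 2.96. RAB GTPases, which direct vesicle traffic, had 15 of 41 members rise and 1 fall (median 0.80), and UBE2 ubiquitin conjugating enzymes had 11 of 32 rise and none fall (median 0.67). Of 9 small non-coding RNAs named after Rfam families 5 fell and none rose (median -1.14), in libraries made from polyadenylated RNA. Over all genes tested, 20.9% rose and 15% fell.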
